A study of Mus musculus with 92 samples.

Results

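Blastomeres of embryos injected with the microRNA let-7d (Let7d) were compared with blastomeres of embryos injected with a negative control (NC). A blastomere is one cell of the cleaving embryo. All embryos were wild type, of the C57BL/6N strain, injected as zygotes and taken apart at the 8-cell stage, so the groups differ in the labels only by the injected material. The study's title places let-7 in the paternal inheritance of mitochondrial and metabolic traits. Blastomeres were grouped by the injected material and not by any measured value, and every gene of the deposited table was examined. The gene lists were chosen with earlier results of these data known. The comparison held 40 of the 81 blastomeres of the series, 18 of Let7d and 22 of NC. In this count 2 Let7d libraries of mouse id 2, which differed by about the sampling noise, were summed and counted as 1 sample.

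Each library was made from a single cell by Smart-seq2, which amplifies full-length polyadenylated transcripts and adds no molecular tags. The replicate was the mouse id of the labels, over which the reads of its blastomeres were summed. Let7d had 3 mouse ids with 5, 6 and 7 blastomeres, and NC had 3 with 8, 8 and 6. What a mouse id stands for (embryo, female or pool) is not stated in the labels, and p-values measure the spread between these sums. Summed depth was 20356425, 18734263 and 20941524 reads in Let7d and 21859475, 20964983 and 13351479 in NC. The groups share no mouse id, so any handling specific to a group and the injected material cannot be told apart. The labels give no dose, no sequence of the control and no measurement of let-7d itself, and microRNAs are not captured by this method, so the uptake of let-7d could not be checked.

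Let-7 is a family of small RNAs that guide Argonaute proteins to messenger RNAs. The guide pairs mainly through its seed, bases 2 to 8, with matching stretches in the 3′ untranslated region (UTR), and the bound message is deadenylated, decayed or translated less. Let-7 accumulates as cells differentiate, and its best known targets (Lin28a, Trim71, Hmga2 and the Igf2bp genes) encode proteins of undifferentiated and growing cells. At the 8-cell stage the embryo runs on its own transcription while oocyte transcripts are being lost.

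The mature sequences of let-7d and let-7e are shown because let-7e was injected in another group of the series and has the same seed. They come from RefSeq (GRCm38), 5′ to 3′, with the seed in capitals.
let-7d-5p: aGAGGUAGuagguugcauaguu
let-7e-5p: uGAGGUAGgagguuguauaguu
Let-7d lies at chr13:48536078-48536099 on the minus strand. Counted from the 5′ end, the substitutions from let-7d to let-7e are A1U, U9G and C16U, all outside the seed.

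Predicted target stretches of some of the named genes with a seed match are printed next, a single stretch per gene. They are DNA of the coding strand in GRCm38, with the match to the seed in capitals. Txlna and Mmgt1 were higher in Let7d, and the other genes printed were lower. Genes with a match and a log2 fold change above 0, such as Trim71 (0.22), Lin28a (0.25) and Igf2bp1 (0.24), are not printed. Hmga2 and Hic2 hold further matches. The stretches all lie in the 3′ UTR of the GENCODE M21 transcript used.
Hmga2 (8mer, chr10:120364224-120364253, minus): agggggcgccgacattcaatttCTACCTCA
Hic2 (8mer, chr16:17262863-17262892, plus): ctttctaccagggacccctcccCTACCTCA
Arid3c (8mer, chr4:41724063-41724092, minus): agggatttatattacgttccatCTACCTCA
Map4k3 (8mer, chr17:80580813-80580842, minus): catggccaaaataatttagttaCTACCTCA
Tarbp2 (7mer-m8, chr15:102523422-102523450, plus): gtaccctccagaggtgccatctCTACCTC
Lars2 (7mer-m8, chr9:123462215-123462243, plus): catcacaggccctggctctgtgCTACCTC
Txlna (7mer-m8, chr4:129626947-129626975, minus): acattggcttgcctcacttcagCTACCTC
Mmgt1 (7mer-A1, chrX:56586097-56586125, minus): gtccacctttggacagcttgcaTACCTCA
The motifs searched on the transcript strand were CTACCTCA (8mer), CTACCTC (7mer-m8) and TACCTCA (7mer-A1). A gene was placed in the strongest class it holds, because the shorter motifs lie within the 8mer. A match describes letters and is not a measured binding site.

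The cells carried the transcripts of cleavage-stage embryos. Dppa3, a maternal and germline factor, was read in 40 of 40 blastomeres at 2619 to 9989 CPM (each count divided by its library's reads and put on one scale, median 3987). Pou5f1, the pluripotency factor, was read in 40 of 40 (median 178 CPM) and Tfap2c, an early trophectoderm regulator, in 40 of 40 (median 152 CPM). The zona pellucida gene Zp3 was read in 39 and the oocyte growth factor gene Gdf9 in 20. Cdx2, which marks later trophectoderm, is not in the table. Of the markers of other cells, 2 of 21 cumulus and granulosa genes, 2 of 20 sperm transcripts and 1 of 17 blood, skin and stromal genes were in the table, and none of them passed the test.

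Across 7886 genes, 0 were called higher (0.0% of genes tested) and 1 lower (0.0127%) in Let7d at an adjusted p of 0.05, by edgeR's quasi-likelihood F test with Benjamini-Hochberg adjustment. At an unadjusted p under 0.05 there were 209 genes higher (2.65%) and 161 lower (2.04%). All 3 Let7d mouse ids lay above all 3 of NC for 473 genes (6.0%), and below them for 470 (5.96%). This balance depended on the scaling: with library totals in place of TMM factors, 684 genes lay above and 305 below. DESeq2 called 1 gene higher, Tug1, and 1 lower. Limma-voom called 0 higher and 1 lower. The median log2 fold change over all genes was 0.01.

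The called gene carries the identifier ENSMUSG00000118642.1, for which the annotation used has no symbol, type or position. It was read at 28.4, 46.5 and 19.1 CPM in the Let7d mouse ids and at 164, 151 and 277 CPM in those of NC, with no overlap. Its log2 fold change was -2.65 ± 0.40 (SE, edgeR adjusted p = 0.0287). Every blastomere had reads of it, from 9.29 to 77.0 CPM in Let7d (median 21.9) and from 4.98 to 775 CPM in NC (median 138), so single cells of the groups overlapped. A single blastomere gave 54.7% of its reads in NC mouse id 2. The nuclear ribosomal RNA gene CT010467.1 moved with it: their log2(CPM + 1) had a Pearson r of 0.709 over the 40 blastomeres of both groups, which differ in the level of both genes, and of 0.418 over the 18 of Let7d and 0.572 over the 22 of NC. These are descriptions across cells, and cells of a mouse id are not independent. CT010467.1 had 70729, 34523 and 26119 CPM in Let7d and 128751, 68067 and 148695 in NC. The call ended without Let7d mouse id 1 (adjusted p = 0.225) or 3 (0.228) and without NC mouse id 1 (0.0730) or 3 (0.286). It also ended with totals only (0.0514), with Let7d and NC alone (0.147), with the Y-linked covariate (0.248), with the mean over blastomeres (0.690) and with the Xist class described further on as a term (0.907). The part of ribosomal RNA carry-over in this difference was not tested.

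**Figure D1:**
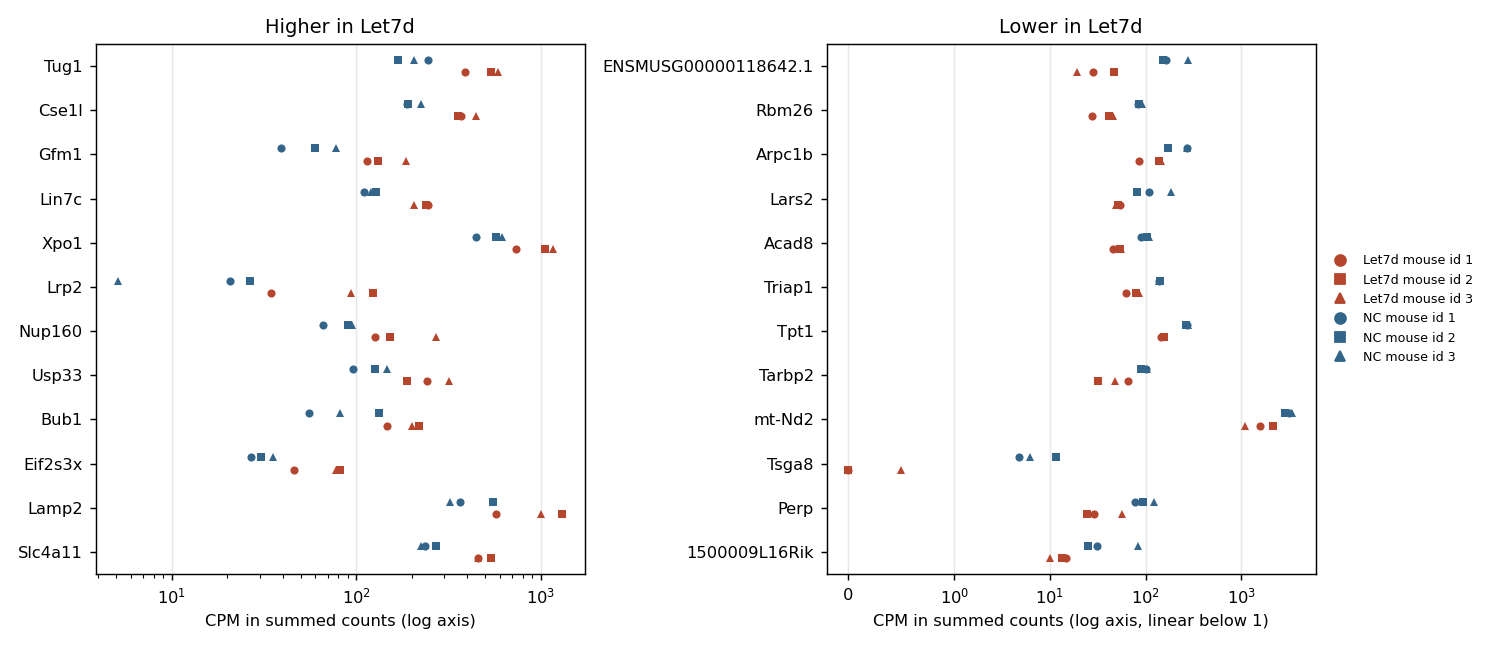
CPM of the summed counts (x axis, logarithmic, and linear below 1 in the right panel) for the 12 genes higher and the 12 lower in Let7d with the smallest p among genes whose groups do not overlap; each symbol is a mouse id, red for Let7d and blue for NC. The red and blue symbols are apart in every row because the genes were picked that way; Tsga8 has 0 CPM in 2 Let7d mouse ids.

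Genes of nuclear export and import were higher in Let7d more often than lower, though no member passed the test. Of 58 measured genes of nuclear transport and the nuclear pore, 12 lay wholly above NC (20.7%, against 6.0% of all genes) and 1 wholly below (1.72%, against 5.96%). The list's median log2 fold change was 0.16, against 0.01 for all genes. Cse1l, which returns importin alpha to the cytoplasm, had 370.4, 356 and 445 CPM in Let7d and 189, 190.4 and 224 CPM in NC. Every Let7d value was above every NC value, and the log2 fold change was 0.96 ± 0.23 (edgeR adjusted p = 0.886). Xpo1, the main exportin for proteins, had 737, 1054 and 1167 CPM in Let7d against 445, 574 and 616 CPM in NC, a log2 fold change of 0.86 ± 0.22. Nup160, a scaffold subunit of the pore, had 127, 152 and 271 CPM against 65.9, 89.9 and 94.9 CPM. The transfer RNA exportin Xpot (0.70 ± 0.30) and the importin Tnpo3 (0.71 ± 0.25) were also wholly above NC. Ranbp1, a cofactor of the Ran GTPase, lay wholly below it (-0.48 ± 0.23). Without Let7d mouse id 1 the list's median was 0.09. The list's median level per mouse id was taken in log2(CPM + 1) around each gene's mean over the 6 mouse ids. It was 0.18, 0.002 and 0.095 in Let7d and -0.07, -0.09 and 0.008 in NC. Let7d mouse id 2 thus lay below NC mouse id 3.

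Mitotic genes showed a similar balance. Of 48 measured G2/M and spindle genes, 37 had a log2 fold change above 0, 7 lay wholly above NC (14.6%, against 6.0% of all genes) and 1, Cdca8, wholly below (2.08%, against 5.96%), with a median of 0.19. None passed the test. Bub1, a spindle checkpoint kinase, had 148, 220.4 and 200.1 CPM in Let7d and 55.8, 133 and 81.7 CPM in NC. Its partner Bub1b had 103, 40.5 and 59.8 CPM against 26.5, 32.0 and 27.1 CPM, so Let7d mouse id 1 stood above the other 2. The cytokinesis genes Ect2 (0.94 ± 0.30) and Prc1 (0.95 ± 0.31) were wholly above NC. The median was 0.09 without Let7d mouse id 1 and 0.32 without NC mouse id 2. The list's median level per mouse id was 0.24, 0.04 and 0.03 in Let7d and -0.20, 0.08 and -0.16 in NC. Let7d mouse ids 2 and 3 thus lay below NC mouse id 2. Of 48 S phase genes 4 lay wholly above NC (8.33%, near the 6.0% of all genes) and 1 below (2.08%, against 5.96%), with a median of 0.05. Pold1, the catalytic subunit of DNA polymerase delta, gave 1.28 ± 0.43, and the licensing genes Mcm2 and Cdc6 gave 0.54 ± 0.22 and 0.69 ± 0.27.

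The other genes with the smallest p among those wholly above NC came from several processes. Tug1, a nuclear long noncoding RNA, had 390.3, 536 and 589 CPM in Let7d and 247, 168 and 205 CPM in NC. Its log2 fold change was 1.29 ± 0.28 (edgeR adjusted p = 0.886, DESeq2 adjusted p = 0.00998). Single blastomeres spanned 92.9 to 1305 CPM in Let7d (median 552) and 13.9 to 543 CPM in NC (median 164). Gfm1, a mitochondrial translation elongation factor, had 115, 132 and 186 CPM against 38.9, 60.1 and 77.5 CPM. Lin7c, a scaffold protein of cell polarity, had 247, 239 and 207 CPM against 110.2, 128 and 120.5 CPM. The deubiquitinase gene Usp33 gave 1.02 ± 0.28 and the membrane transporter gene Slc4a11 0.98 ± 0.28. Lrp2, an endocytic receptor of the trophectoderm, had 34.7, 124 and 94.3 CPM against 20.8, 26.4 and 5.10 CPM. Its value rests on few cells: 1 blastomere gave 71.3% of the reads in Let7d mouse id 2, and 3 Let7d and 6 NC blastomeres had none. Of 25 trophectoderm genes 2, Lrp2 and Fgfr2, lay wholly above NC (8.0%) and 1, Amot, below (4.0%), shares near those of all genes (6.0% and 5.96%), with a median of 0.07.

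Among the genes lower in Let7d, Rbm26, an RNA-binding protein, had 27.3, 41.5 and 46.0 CPM in Let7d and 83.3, 86.1 and 91.2 CPM in NC, a log2 fold change of -1.18 ± 0.31 (edgeR adjusted p = 0.886). Arpc1b, a subunit of the actin-branching Arp2/3 complex, had 85.5, 139 and 145 CPM against 269, 169.7 and 269.5 CPM. Tpt1, an abundant growth-related protein gene, was steady within groups, at 145, 155 and 151 CPM against 271, 265 and 274 CPM. Lars2, the mitochondrial leucyl-tRNA synthetase, had 54.4, 51.0 and 49.2 CPM against 108, 81.1 and 184 CPM. Acad8, a mitochondrial enzyme of valine breakdown, gave -0.95 ± 0.28, and Triap1, a mitochondrial lipid transfer and p53-regulated protein, -0.87 ± 0.26. The uncharacterised 1500009L16Rik gave -1.85 ± 0.58. Tsga8, a spermatid gene on the X chromosome, had 0, 0 and 0.499 CPM against 4.76, 11.7 and 6.24 CPM, but 17 of 18 Let7d and 13 of 22 NC blastomeres had no read of it, so its fold change has no stable size.

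Mitochondrially encoded subunits of oxidative phosphorylation (OXPHOS) were the most uniform group. All 7 measured genes, of 13 listed, lay wholly below NC, against 5.96% of all genes. Their log2 fold changes ran from -0.98 to -0.55, with a median of -0.75. None passed the test across all genes. The uniformity did not extend to every gene of the mitochondrial genome. Of all 16 measured mitochondrially encoded genes, these 7 included, 9 lay wholly below NC (56.25%, against 5.96% of all genes). A log2 fold change above 0 was seen in 3 of the 16. The median over the 16 was -0.64. Mt-Nd2, of complex I, had 1551, 2127 and 1091 CPM in Let7d and 3164, 2836 and 3380.4 CPM in NC, and in single blastomeres 785 to 3174 CPM (median 1462) against 1946 to 4916 CPM (median 2966). The complex I genes mt-Nd1 (-0.78 ± 0.27), mt-Nd4 (-0.64 ± 0.29), mt-Nd5 (-0.55 ± 0.24) and mt-Nd6 (-0.70 ± 0.32) lay in the same range, as did the complex III gene mt-Cytb (-0.75 ± 0.29) and the complex IV gene mt-Co1 (-0.81 ± 0.27). These genes are read from shared precursor transcripts and are not independent of each other. Let7d mouse id 3 was lowest for all 7.

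**Figure D2:**
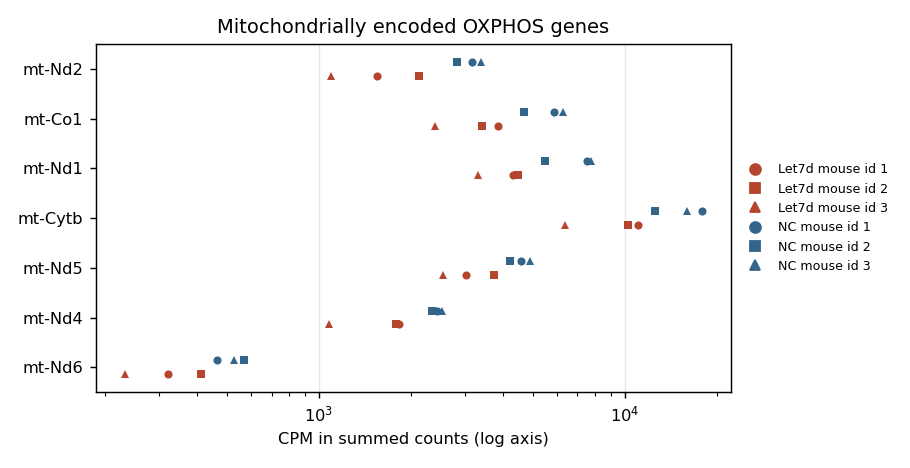
CPM of the summed counts (logarithmic x axis) for the 7 measured mitochondrially encoded OXPHOS genes; each symbol is a mouse id, red for Let7d and blue for NC. In every row the 3 Let7d symbols are left of the 3 NC symbols, and Let7d mouse id 3 is the lowest.

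Nuclear-encoded OXPHOS subunits differed less. Of 72 measured, 1 lay wholly above NC (1.39%, against 6.0% of all genes) and 9 wholly below (12.5%, against 5.96%), with a median of -0.11. Depth and composition also separated the groups. Let7d blastomeres held 3.395e+06 ± 5.892e+05 reads (mean ± SD, n = 3) against 2.526e+06 ± 2.665e+05. Nuclear and mitochondrially encoded ribosomal RNA genes together took 5.97% ± 2.57 of Let7d reads against 12.9% ± 3.24. All 3 Let7d values lay on one side of all 3 NC values in both measures, for which the exact two-sided permutation test gives p = 0.1, the smallest that 3 against 3 allows (adjusted p = 0.15 over 6 measures). In Let7d mouse id 2 the 2 summed libraries count as 1 blastomere, which raises its reads per blastomere. Counted apart, its mean would fall below that of NC mouse id 1, so the separation in depth depends on that count. The part of depth and of ribosomal RNA in the mitochondrial difference was not tested. Between let-7e and let-7d injected embryos, which were fitted together and share no samples, the 7 mitochondrially encoded genes had log2 fold changes of Let7e over Let7d from 0.58 ± 0.26 (mt-Co1, edgeR adjusted p = 0.924) to 1.24 ± 0.26 (mt-Nd1, adjusted p = 0.537). By edgeR 0 genes passed that comparison at an adjusted p of 0.05, while 425 had an unadjusted p below 0.05.

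Genes with a let-7 seed match were not lower as a class. Of 7577 genes with an annotated 3′ UTR, 280 held an 8mer, 514 a 7mer-m8 as the best match, 483 a 7mer-A1 and 6300 none. The median log2 fold change was 0.07 for 8mer genes, 0.04 for 7mer-m8 genes, 0.11 for 7mer-A1 genes and -0.004 for genes without a match. Of 8mer genes 13 lay wholly below NC (4.64%) and 14 wholly above (5.0%). For 7mer-m8 genes the shares were 4.28% below and 6.23% above, for 7mer-A1 genes 3.52% and 8.70%, and for genes without a match 6.27% and 5.83%. Genes with 2 or more 8mer or 7mer-m8 matches, 105 in all, had a median of 0.05. None of the seed-match genes passed the test.

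Length of the 3′ UTR moved with these values. The median UTR was 2636 bases in 8mer genes, 2319.5 in 7mer-m8 genes and 2468 in 7mer-A1 genes, against 966.5 in genes without a match. Among genes without a match the median log2 fold change was -0.06 for the shortest UTRs (2101 genes, median 275 bases), -0.001 for the middle ones (2099 genes, 967 bases) and 0.05 for the longest (2100 genes, 2442 bases). Beside the 0.05 of long UTRs without a match, the match classes lay at 0.04, 0.07 and 0.11.

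**Figure D3:**
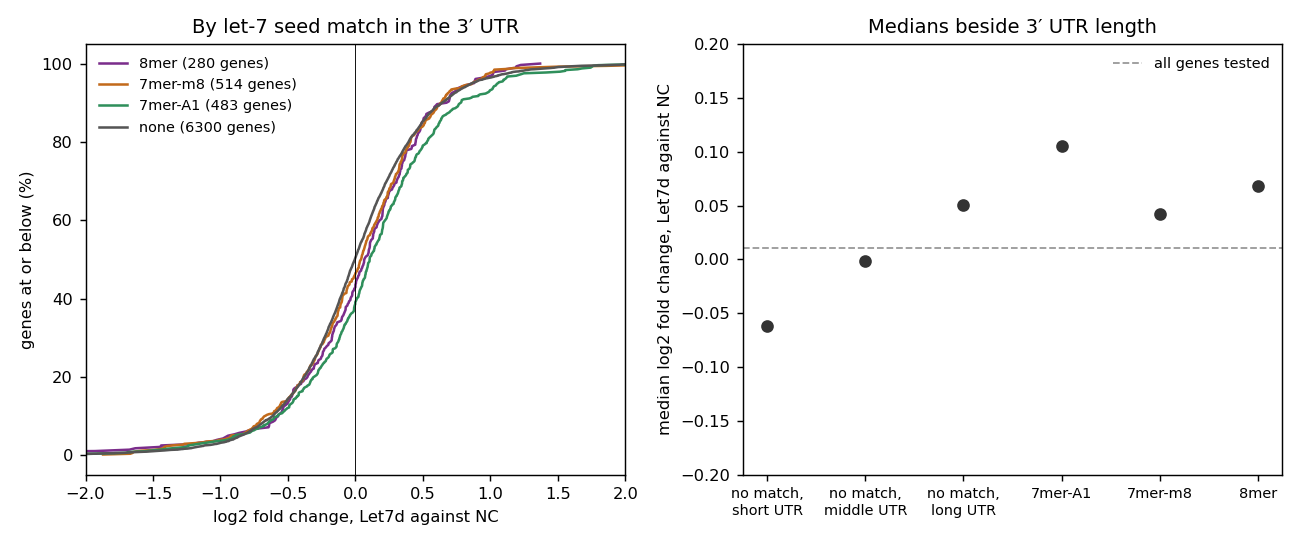
Left, cumulative share of genes (%) by log2 fold change of Let7d against NC for each class of seed match in the 3′ UTR. No match class lies to the left of the genes without a match at the median. Right, the median log2 fold change of each class beside genes without a match split by UTR length; the dashed line is the median of all genes, 0.01, and the 3 match classes lie at 0.04 to 0.11.

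The textbook targets went in both directions. Hmga2, a chromatin protein of growing cells, was the exception that lay wholly below NC: 194, 168 and 123 CPM in Let7d and 204, 221 and 275 CPM in NC, a log2 fold change of -0.53 ± 0.32 (edgeR adjusted p = 1.0). In single blastomeres it ranged from 83.8 to 292 CPM in Let7d (median 149) and from 71.6 to 600.4 CPM in NC (median 209). Lin28a, which blocks let-7 maturation, had 102, 70.5 and 71.4 CPM against 61.2, 60.4 and 83.9 CPM. Trim71, a ubiquitin ligase and mRNA repressor, had 495, 459.5 and 153 CPM against 342, 399 and 209.8 CPM. The RNA-binding protein genes Igf2bp1 (0.24 ± 0.32), Igf2bp2 (0.37 ± 0.38) and Igf2bp3 (0.53 ± 0.56) overlapped between groups. Dicer1, which cuts microRNA precursors and has no seed match in the UTR used, had 129.6, 110.0 and 32.4 CPM against 76.7, 69.1 and 46.7 CPM. Arid3a is not in the table. All of the measured targets other than Dicer1 hold at least 1 8mer.

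**Figure D4:**
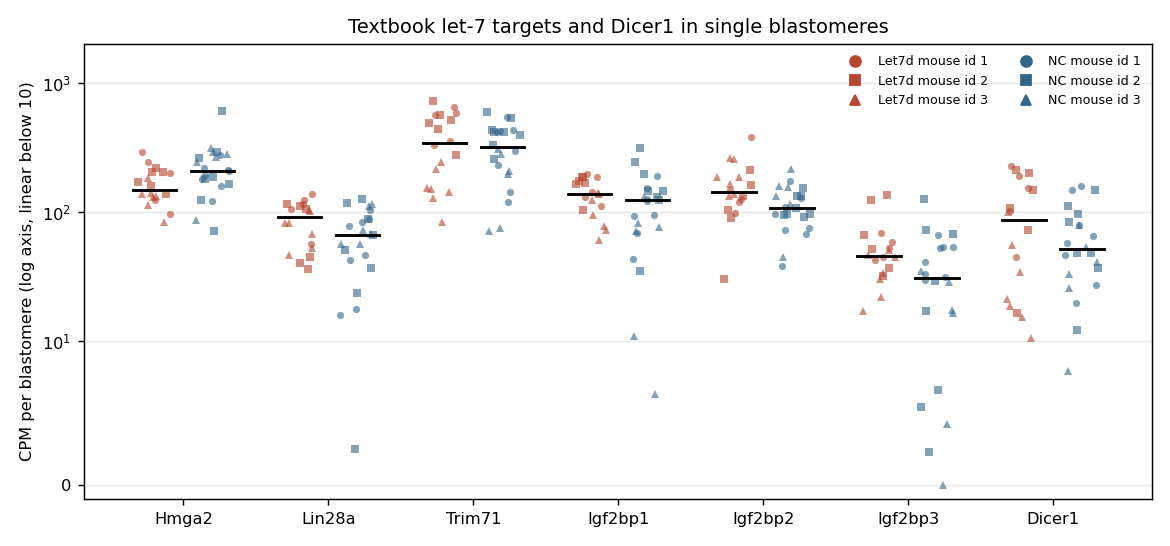
CPM of each blastomere (y axis, logarithmic and linear below 10) for 6 textbook let-7 targets and Dicer1; symbols mark the mouse id, red for Let7d and blue for NC, and the black bar is the median of the blastomeres. Hmga2 has the lower bar in Let7d (149 against 209 CPM), and the clouds of points overlap for all 7 genes.

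Of 40 measured let-7 targets from the literature, 2 lay wholly above NC (5.0%) and 3 wholly below (7.5%), shares near those of all genes (6.0% and 5.96%), and the median was 0.07. Hic2, a transcriptional repressor, had 30.8, 42.4 and 35.8 CPM in Let7d and 74.3, 67.9 and 49.1 CPM in NC (-0.81 ± 0.34). In the other direction Gtf2i, a transcription factor gene with a 7mer-A1, gave 1.19 ± 0.45 and Eif4g2, a translation factor, 0.62 ± 0.26. Among all 8mer genes the smallest p belonged to Arid3c, Map4k3 and Hic2, all lower. Arid3c, a DNA-binding protein gene, had 0.143, 6.10 and 1.27 CPM against 10.5, 44.8 and 8.67 CPM, with no read in 13 of 18 Let7d and 3 of 22 NC blastomeres. Map4k3, a kinase gene of the growth pathway, had 3.15, 5.07 and 3.22 CPM against 9.18, 13.8 and 20.7 CPM. Both were thinly read, and 1 blastomere gave up to 100% and 98.6% of their reads in a mouse id. Among 7mer-m8 genes Lars2, as given above, and Tarbp2 were lower, and Txlna (0.90 ± 0.28) was higher. Among 7mer-A1 genes 9130023H24Rik (2.72 ± 0.79), Pgrmc1 (1.56 ± 0.46) and Mmgt1 (1.06 ± 0.33) were higher, the last pair on the X chromosome.

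The microRNA machinery itself had 38 measured genes, 5 wholly above NC (13.2%, against 6.0% of all genes) and 4 wholly below (10.5%, against 5.96%), with a median of 0.19. Tarbp2, the double-stranded RNA-binding partner of Dicer, had 64.8, 31.6 and 48.1 CPM in Let7d and 100.03, 90.4 and 104 CPM in NC, a log2 fold change of -1.02 ± 0.31 (edgeR adjusted p = 0.886). Pan2, a deadenylase subunit, gave -1.45 ± 0.59. The decapping scaffold gene Edc4 gave 0.78 ± 0.30, the helicase gene Mov10 1.0 ± 0.39 and the uridylyl transferase gene Tut7, which tags let-7 precursors, 0.89 ± 0.35.

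X-linked genes mostly had higher values in Let7d. Of 232 measured, 191 had a log2 fold change above 0, with a median of 0.47 against 0.002 for 7624 autosomal genes. Wholly above NC were 30 of them (12.9%, against 6.0% of all genes) and wholly below 4 (1.72%, against 5.96%). None passed the test. Lamp2, a lysosomal membrane protein, had 569.6, 1314 and 1010.1 CPM in Let7d and 364, 552 and 324 CPM in NC. Eif2s3x, a subunit of the initiator-tRNA carrier eIF2, had 45.9, 81.4 and 78.1 CPM against 27.0, 30.5 and 35.4 CPM. Pgrmc1, a haem-binding membrane protein, had 114, 419 and 408 CPM against 109.6, 127 and 83.2 CPM, where Let7d mouse id 1 lay among the NC values. Pdha1, of pyruvate dehydrogenase, gave 0.96 ± 0.29.

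The mouse ids also differed in Xist, the noncoding RNA that coats the inactive X of female cells. Blastomeres with at least 50 CPM of Xist were 0 of 5, 6 of 6 and 7 of 7 in Let7d mouse ids 1, 2 and 3, and 0 of 8, 4 of 8 and 0 of 6 in those of NC. The remaining 23 carried Y-linked transcripts, so 13 of 18 Let7d and 4 of 22 NC blastomeres carried Xist. NC mouse id 2 held both classes, so its blastomeres did not all come from a single embryo. Reads from X-linked genes were 2.12%, 3.65% and 3.98% in Let7d and 1.92%, 2.76% and 1.94% in NC (exact two-sided permutation p = 0.2, adjusted p = 0.24 over 6 measures). Within NC mouse id 2 the 4 Xist-carrying blastomeres exceeded the 4 Y-carrying ones by a median of 0.84 over X-linked genes, with 183 of 232 above 0. This is on the log2(CPM + 1) scale and describes cells of a single mouse id. With the class as a term in the fit the X-linked median of Let7d against NC was 0.07, and 0.08 with the level of Y-linked transcripts as a covariate. The fit with the class used 17 sums, because a mouse id holding both classes was cut into a sum per class. Sums of one mouse id thus entered that fit as separate replicates. Among Let7d and NC, only NC mouse id 2 held both classes. The part of the Xist class in the X-linked difference was not tested.

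**Figure D5:**
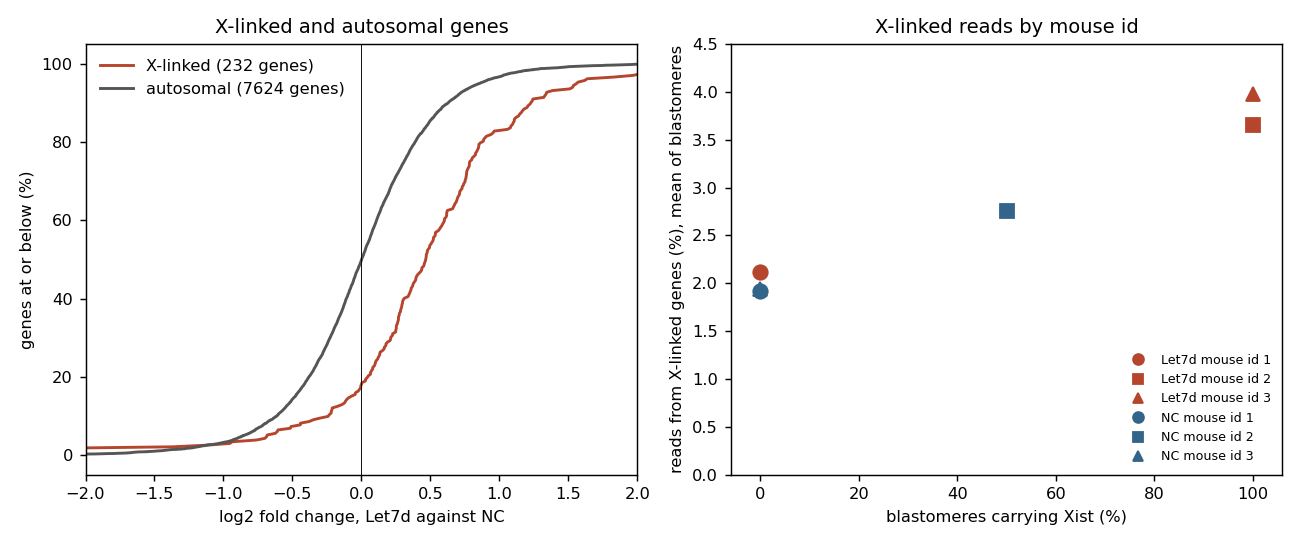
Left, cumulative share of genes (%) by log2 fold change of Let7d against NC, for 232 X-linked and 7624 autosomal genes; the X-linked curve lies to the right, with a median of 0.47. Right, percent of reads from X-linked genes against the percent of Xist-carrying blastomeres in each mouse id; Let7d mouse ids 2 and 3, made up of Xist-carrying blastomeres, are highest at 3.65% and 3.98%.

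Genes of the p53 response mostly had lower values in Let7d, and also in Xist-carrying blastomeres of NC mouse id 2. Of 25 measured genes, 18 had a log2 fold change below 0, 3 lay wholly below NC (12%, against 5.96% of all genes) and 0 wholly above (against 6.0%), with a median of -0.66. The lower values came from Let7d mouse ids 2 and 3: the list's median level, in log2(CPM + 1) around each gene's mean over the 6 mouse ids, was 0.34, -0.44 and -0.67 in Let7d and 0.63, 0.27 and 0.05 in NC, so Let7d mouse id 1 lay above NC mouse ids 2 and 3. Perp, a p53-induced membrane protein, had 28.6, 24.7 and 57.1 CPM in Let7d and 76.9, 93.5 and 122 CPM in NC. Cdkn1a, the p21 cell cycle inhibitor, had 225, 175 and 86.2 CPM against 407, 359.8 and 193 CPM, so the groups overlapped. Phlda3, an Akt inhibitor, had 13.8, 6.01 and 9.08 CPM against 45.2, 58.6 and 46.7 CPM, with no read in 10 of 18 Let7d and 2 of 22 NC blastomeres. Within NC mouse id 2 the Xist-carrying blastomeres differed from the Y-carrying ones by a median of -0.58 over this list on the log2(CPM + 1) scale. Lists of other processes also differed in that contrast of 4 against 4 cells, so the shift is not particular to p53 genes. The median was -0.94 for glycolysis, 0.56 for cytosolic ribosomal proteins, 0.49 for nuclear-encoded OXPHOS subunits and -0.05 for G2/M genes. With the class as a term the p53 list's median of Let7d against NC was -0.39. The part of the Xist class in the p53 difference was not tested.

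With the same term the mitochondrially encoded median was -0.65 (from -0.75), that of nuclear transport 0.17 (from 0.16) and that of G2/M genes 0.16 (from 0.19). Tug1 gave 1.51, Cse1l 1.04, Xpo1 0.80, Lars2 -1.27, Hic2 -0.97 and Hmga2 -0.67, while ENSMUSG00000118642.1 gave -2.19 and was not called (edgeR adjusted p = 0.907). Within NC mouse id 2 ENSMUSG00000118642.1 was lower in Xist-carrying blastomeres, at -2.67. That value compares pooled reads, and a single blastomere gave 54.7% of the gene's reads in that mouse id.

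Pluripotency genes had a median of -0.16 over 22 measured. Of them 1, Dppa2, lay wholly above NC (4.55%, near the 6.0% of all genes) and 0 wholly below (against 5.96%). Dppa2 had 549, 598 and 565 CPM in Let7d against 361, 385 and 396 CPM in NC. Pou5f1 gave -0.72 ± 0.35 with overlapping groups. Maternal oocyte transcripts (15 measured) had a median of 0.08, cytosolic ribosomal proteins (79) -0.07, glycolysis (14) 0.23, pyruvate dehydrogenase and TCA cycle genes (31) -0.11, fatty acid oxidation (22) 0.03 and heat shock genes (30) -0.02. None of their members passed the test.

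The other injected groups were set beside NC in the same fit, let-7e and the microRNA that the labels call mi699a-5p. These comparisons share the NC samples, so their likeness is no independent evidence. The log2 fold change of Tug1 was 1.29 for Let7d, 0.86 for Let7e and 1.14 for mi699a-5p. Gfm1 gave 1.29, 1.12 and 1.19, Lin7c 0.95, 0.74 and 1.04, and Xpo1 0.86, 0.78 and 0.94. ENSMUSG00000118642.1 gave -2.65, -1.19 and -2.02. By contrast mt-Nd2 gave -0.98, 0.03 and 0.08, Tpt1 -0.84, -0.04 and -0.04, and Lamp2 1.22, 0.13 and 0.63. Lamp2 is X-linked, and was 1.61 higher in Xist-carrying than in Y-carrying blastomeres of NC mouse id 2. In the same order, the list medians were 0.16, 0.14 and 0.09 for nuclear transport and 0.19, 0.04 and 0.19 for G2/M genes. They were 0.47, 0.05 and 0.38 for X-linked genes and -0.75, 0.11 and -0.05 for mitochondrially encoded OXPHOS genes.

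Blastomeres of one mouse id varied widely. The SD of log2(CPM + 1) within a mouse id had a median over genes of 1.46 in Let7d and 1.48 in NC. The part of a gene's variance that lay between mouse ids had a median of 3.31% in Let7d and 1.25% in NC, so for most genes the cells of a mouse id differed about as much as cells of different mouse ids.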

How the data were processed

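Raw read counts per gene were deposited for single blastomeres, with STAR and the build GRCm38.p6 named per the submitters' processing notes; the counting program is not given in the sources used here, and the table's name says that the authors filtered it on CPM. It holds 7886 genes and 82 columns, and 10 of 92 samples were not analysed here. The RPKM table was not used. Of the gene identifiers 7884 matched GENCODE M21. Columns within Let7d or NC were compared in 402 pairs, and 1 pair (chi-square 1.05 per gene, next 38.5) was summed. Counts were summed per mouse id and fitted with edgeR 4.0.16 in R 4.3.3 (TMM, quasi-likelihood F test, all 4 groups, 14 sums, 10 residual degrees of freedom). The filter on low counts removed 0 genes. CPM of sums are scaled by TMM factors, and CPM of blastomeres by their reads. DESeq2 1.42.0 and limma 3.58.1 were alternatives. The fit was tested on simulated data. Errors are standard errors unless named. The genes named were those called, the 12 higher and 12 lower with the smallest p among genes with a mean of at least 10 CPM whose groups do not overlap, up to 3 of each list or seed class, and textbook let-7 targets; further list members were named after their values were seen. The Xist class and the split of unmatched genes by UTR length were added after seeing the data. Members and lists were chosen with earlier results of these data known.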

Additional observations from a re-analysis of the deposited data

How the results depend on the processing

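The single lower call held with limma-voom, other size factors, thinning, a mean of at least 10 CPM, no filter, and without ribosomal and mitochondrially encoded genes; it ended (0 genes) with totals only, with Let7d and NC alone, with the Y-linked covariate, with the mean over blastomeres and with the Xist class as a term. With a replicate block it was 0 as well; same-numbered mouse ids correlated at 0.0808, 0.0585 and 0.0975, each highest for its own number but under 0.1, so the numbers were not taken as pairs. Without single mouse ids it was 0 to 1. DESeq2 called 1 gene higher at its default independent filtering of 0.1 and 2 with filtering set at 0.05, a setting changed after the first counts had been seen, as was the Xist class added. Totals only moved the median of all genes by 0.108 and the mean over blastomeres by 0.0996; the medians of 8mer, 7mer-m8, 7mer-A1 and unmatched genes were then 0.186, 0.153, 0.215 and 0.104 with totals only and 0.187, 0.146, 0.175 and 0.0967 with the mean over blastomeres. With the Y-linked covariate the 7mer-m8 median was -0.00325 and the unmatched one -0.0282, and with the Xist class -0.00489 and -0.0212; limma-voom gave -0.0198 for unmatched genes. Without single mouse ids the medians ranged from 0.0464 to 0.115 (8mer), 0.0157 to 0.0449 (7mer-m8), 0.0508 to 0.131 (7mer-A1), -0.0215 to 0.0105 (unmatched) and 0.305 to 0.667 (X-linked). The X-linked median was 0.0757 with the Y-linked covariate and 0.0709 with the Xist class. With totals only 684 genes lay wholly above NC and 305 wholly below (473 and 470 with TMM), and 329 higher and 82 lower genes had an unadjusted p under 0.05. Genes named that changed sign had no call: without single mouse ids Igf2bp1 ranged from -0.0514 (without NC mouse id 3) to 0.576, Trim71 from -0.0491 (without Let7d mouse id 1, and -0.00436 without NC mouse id 3) to 0.600, Gja1 from -0.0784 (without NC mouse id 2, and -0.0652 without Let7d mouse id 2) to 0.315, and Pecam1 from -0.316 (without Let7d mouse id 1, and -0.0509 without NC mouse id 3) to 0.429; Odf2 was -0.112 with the mean over blastomeres. The cause of these changes was not tested. With blastomeres thinned to one depth the counts called were again 0 higher and 1 lower; how the number of mouse ids bears on the precision was not tested.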
